A study of Arabidopsis thaliana with 12 samples.

Results

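The type-A response regulators are the small proteins that cytokinin signaling induces and that act back on it. The 10 members examined were taken by name and gene identifier from the 37336 genes that were counted in each library: *ARR3* (AT1G59940), *ARR4* (AT1G10470), *ARR5* (AT3G48100), *ARR6* (AT5G62920), *ARR7* (AT1G19050), *ARR8* (AT2G41310), *ARR9* (AT3G57040), *ARR15* (AT1G74890), *ARR16* (AT2G40670) and *ARR17* (AT3G56380). RNA was sequenced from Arabidopsis callus of the cultivar L.er that carries 35S:LFY-GR, a fusion of the floral regulator LEAFY to the steroid responsive part of the glucocorticoid receptor, which keeps it out of the nucleus until dexamethasone is given. Roots of 3-week-old plants were kept for 5 days on callus inducing medium (CIM), which contains the auxin 2,4D and the cytokinin kinetin, and were given mock (ethanol) or 5 µM dexamethasone solution over its final 1, 6, or 24 h. Each of these 6 conditions had biological replicates A and B, and all 12 libraries, mock included, came from 35S:LFY-GR tissue on medium with cytokinin. The 35S promoter drives the fusion in most cells of the explant, and plants without the transgene were not analysed here, so effects of the steroid and of LFY-GR cannot be told apart.

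Cytokinin is perceived by histidine kinase receptors at membranes, and the phosphoryl group passes through the histidine phosphotransfer proteins to response regulators in the nucleus. Type-B response regulators bind DNA and switch on their targets, among them the type-A genes, whose proteins carry the receiver domain but no DNA binding domain and damp the signal. The type-A genes are therefore widely used as readouts of cytokinin response, and in callus the balance of cytokinin and auxin is known to direct whether roots, shoots or undifferentiated tissue form.

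Between 18511462 and 66789371 reads per library fell on genes, with 18511462 to 25879110 in the 4 libraries of 24 h and at least 46891400 in the 8 others. All 8 markers of callus and root tissue (*LBD16*, *LBD17*, *LBD18*, *LBD29*, *WOX5*, *PLT1*, *PLT2* and *SCR*) had reads in all 12 libraries, with summed levels of 664.8 to 934.7 CPM (read counts relative to a fixed library size). The B replicates of 1 h mock, 1 h dexamethasone and 6 h mock stood apart: their differences from replicate A correlated with each other (Pearson r across 21212 genes 0.52 to 0.70, genes not being independent replicates) and followed the GC content of exons (r = 0.35 to 0.46, against -0.10 to -0.03 in the other conditions). In these 3 conditions, genes with an exon GC content of at most 38% were lower in replicate B (median log2 difference B minus A of -0.20 to -0.34). The type-A genes have exon GC contents between 33.9% and 40.2%.

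The 10 genes spanned a wide range of expression. Counts were divided by library size and exon length (reads per kilobase of exon in relation to the library total, RPKM) to compare genes. *ARR4*, which binds the photoreceptor phytochrome B, was the most abundant type-A transcript in all 12 libraries (median 95.0 RPKM, range 65.0 to 179 RPKM), and its range did not overlap that of any other member. Next came *ARR9* (median 22.1 RPKM), *ARR6* (21.3 RPKM), *ARR5* (13.5 RPKM), *ARR8* (13.0 RPKM), *ARR7* (11.03 RPKM) and *ARR3* (7.88 RPKM). Among these 6 the order was not fixed: *ARR9* was above *ARR6* in 6 of 12 libraries, *ARR5* above *ARR8* in 7, *ARR8* above *ARR7* in 9 and *ARR7* above *ARR3* in 6, whereas *ARR6* was above *ARR5* in all 12. *ARR15*, a close relative of *ARR7*, and *ARR16* and *ARR17*, which are known from the stomatal lineage of leaves, were near the limit of detection (medians of 0.328, 0.124 and 0.0266 RPKM). *ARR17* had at most 5 reads in any library and 0 reads in each of the 4 libraries of 24 h, where 0 reads allow a level of up to 0.116 to 0.162 CPM. That limit covers counting error only.

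**Figure D1:**
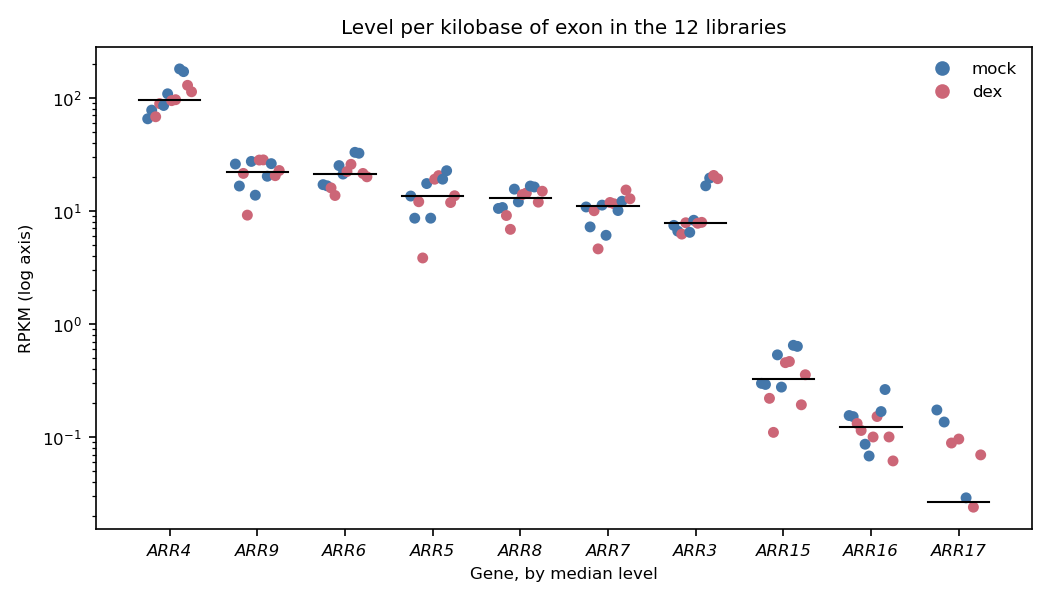
Level of each type-A response regulator per kilobase of exon (RPKM, log axis) in the 12 libraries, in order of the median (black line), with mock in blue and dexamethasone in red; libraries with 0 reads of *ARR17* are not drawn. *ARR4* lies above all others, between 65.0 and 179 RPKM, and *ARR15*, *ARR16* and *ARR17* lie below 1 RPKM.

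Because type-B response regulators act through short DNA motifs, the 300 bases before the annotated start of each gene were searched on both strands for their core motif, taken as AGATT, with the variants AGATC (another last base), GGATT (another first base) and GGATC (both), and for the longer form AAGATNTT, which overlaps the core. The 3 members that fell after 24 h of dexamethasone and *ARR7*, which did not, are shown from RefSeq TAIR10.1, a genome of the Columbia accession and not of the L.er cultivar sequenced here. All 4 lie on the minus strand, and the windows are chr1:3444361-3444660, chr3:17760951-17761250, chr5:25254319-25254618 and chr1:6579315-6579614, written 5′ to 3′ in the direction of the gene. Capitals mark the core motif in either orientation.
ARR4: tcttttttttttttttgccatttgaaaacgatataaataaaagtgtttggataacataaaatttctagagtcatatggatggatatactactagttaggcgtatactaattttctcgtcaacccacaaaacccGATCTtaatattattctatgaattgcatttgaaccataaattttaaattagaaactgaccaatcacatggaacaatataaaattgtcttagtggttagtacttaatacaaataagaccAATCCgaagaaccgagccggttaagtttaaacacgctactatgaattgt
ARR5: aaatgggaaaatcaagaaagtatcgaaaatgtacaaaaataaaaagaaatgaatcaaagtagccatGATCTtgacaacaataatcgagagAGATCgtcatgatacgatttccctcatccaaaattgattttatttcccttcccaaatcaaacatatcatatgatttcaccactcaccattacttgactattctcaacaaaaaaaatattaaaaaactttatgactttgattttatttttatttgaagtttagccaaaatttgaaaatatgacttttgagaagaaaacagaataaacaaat
ARR6: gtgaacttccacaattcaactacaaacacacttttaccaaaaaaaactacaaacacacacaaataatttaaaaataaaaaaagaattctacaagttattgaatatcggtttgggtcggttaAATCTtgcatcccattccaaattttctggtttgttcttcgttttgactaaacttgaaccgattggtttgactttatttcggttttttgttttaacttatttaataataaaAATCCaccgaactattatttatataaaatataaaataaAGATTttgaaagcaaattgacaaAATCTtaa
ARR7: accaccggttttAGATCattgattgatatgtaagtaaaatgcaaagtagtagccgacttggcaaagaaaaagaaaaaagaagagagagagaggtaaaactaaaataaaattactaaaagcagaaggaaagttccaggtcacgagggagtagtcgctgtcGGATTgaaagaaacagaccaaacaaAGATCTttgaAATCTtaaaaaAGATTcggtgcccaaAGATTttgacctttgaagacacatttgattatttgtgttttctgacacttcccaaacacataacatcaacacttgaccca
With the variants counted, *ARR4* and *ARR5* each had 2 core motifs, the median of all 27443 promoters, and 70.0% of promoters had at least as many. AGATT itself was absent from the windows of *ARR4*, *ARR5* and *ARR17*. It was present in the other 7 members and in 70.7% of all promoters. *ARR6* had 4 (at least as many in 27.8% of promoters) and *ARR7* had 7 (3.37%). Of the other members *ARR16* had 8 (1.43%), *ARR15* had 5 (14.8%), and *ARR3*, *ARR8*, *ARR9* and *ARR17* had 2 each. AAGATNTT was present in 6 of the 10 windows (*ARR6*, *ARR7*, *ARR8*, *ARR9*, *ARR15* and *ARR16*) and in 14.3% of all promoters. The core letters of the LFY motif, CCANTGG, were in 0 of the 10 windows and in 3.57% of all promoters. A match in these windows is a match of letters and was not tested for binding.

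After 24 h of dexamethasone, *ARR4*, *ARR5* and *ARR6* fell to between 0.616 and 0.693 of their mock level, and the transcripts of the other members that could be tested did not pass the threshold. *ARR5* and *ARR6* are classical primary response genes of cytokinin, and the *ARR5* promoter serves as a reporter of the hormone. In bulk tissue, fewer cells of a type and less RNA per cell cannot be told apart. The question of this comparison is how the expression of the family differs once LFY-GR has been active for a day.

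*ARR4* was counted 9680 and 7802 times in the mock replicates A and B and 5165 and 5533 times with dexamethasone, which after scaling for library size gave 376 and 356 CPM in mock and 270 and 236 CPM with the steroid. Both treated libraries were below both mock libraries (means ± SD of 366 ± 14.3 and 253 ± 23.4 CPM, n = 2 each). On the log2 scale the fold change was -0.53 (SE 0.057, adjusted p = 3.23e-09 by edgeR's quasi-likelihood test with Benjamini-Hochberg adjustment).

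*ARR5* had 710 and 718 reads in mock and 329 and 461 reads with dexamethasone, or 27.6 and 32.8 CPM against 17.2 and 19.7 CPM. Again the groups did not overlap. This was the largest fold change of the 3 (log2 -0.70, SE 0.11, edgeR adjusted p = 7.23e-06).

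*ARR6* had 1233 and 1031 reads in mock and 598 and 682 reads with dexamethasone, or 47.9 and 47.1 CPM against 31.2 and 29.1 CPM. The mock replicates lay within 1 CPM of each other and above both treated libraries. The log2 fold change was -0.65 (SE 0.088, edgeR adjusted p = 3.70e-07). *ARR6* overlaps the coding gene AT5G62910 on the opposite strand, and reads were counted without strand, so that reads in the overlap cannot be given to either gene with certainty. AT5G62910 itself had 17.2 and 16.3 CPM in mock and 14.9 and 16.0 CPM with dexamethasone (log2 fold change -0.11, edgeR adjusted p = 0.600).

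Other members gave other values. *ARR3*, the nearest relative of *ARR4*, had 21.8 and 25.5 CPM in mock and 26.9 and 25.2 CPM with dexamethasone, and the groups overlapped (log2 fold change 0.15, SE 0.11, edgeR adjusted p = 0.376). *ARR7*, a gene that the stem cell regulator WUSCHEL represses in the shoot meristem, had 9.49 and 11.5 CPM in mock and 14.4 and 12.1 CPM with the steroid. Here both treated libraries were above mock, but the difference was not past the threshold (log2 0.34, SE 0.15, edgeR adjusted p = 0.103). *ARR15* had 18 and 15 reads in mock against 4 and 9 with dexamethasone, the same order as *ARR5* but with too few reads to pass (log2 fold change -1.17, SE 0.69, edgeR adjusted p = 0.248).

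*ARR8* and *ARR9*, a further pair of paralogs, were both abundant enough for a test. *ARR8* had 39.2 and 38.5 CPM in mock and 28.3 and 35.3 CPM with dexamethasone. The groups did not overlap, yet the difference missed the threshold (log2 -0.28, SE 0.098, edgeR adjusted p = 0.0355) and passed it without dexamethasone replicate B (log2 -0.45, adjusted p = 0.00114). *ARR9* had 38.3 and 49.5 CPM in mock and 38.7 and 43.0 CPM with dexamethasone, and both treated libraries lay within the range of mock (log2 -0.09, edgeR adjusted p = 0.581). *ARR16* (9 and 12 reads in mock, 4 and 3 with dexamethasone) and *ARR17* (0 reads throughout) had too few reads for the test. Both *ARR8* and *ARR9* overlap an antisense noncoding gene in the annotation, AT2G09250 and AT3G08825, each of which was listed at 0 reads in all 12 libraries. Because reads were counted without strand, reads in an overlap cannot be given to either gene with certainty. The 0 reads therefore do not show that the antisense genes were silent.

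Of the 10 members, 8 passed the filter on low counts at 24 h, and of these 3 were lower and 0 higher at an edgeR adjusted p under 0.01. Over all 19288 genes tested, 8.76% were lower, 6.77% higher and 15.5% changed in either direction. The median log2 fold change of the 8 members was -0.40, beside 0.01 over all genes. The correlation of fold changes at 24 h with exon GC content was -0.01 across 19179 genes. When all 12 libraries shared one estimate of the spread, 1 of the 3 calls was kept: *ARR6* (adjusted p = 0.00274), with *ARR4* at 0.0347 and *ARR5* at 0.376 and fold changes of nearly the same size (log2 -0.53 and -0.71). Whether *ARR4*, *ARR5* and *ARR6* differed from the other members in response was not tested.

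**Figure D2:**
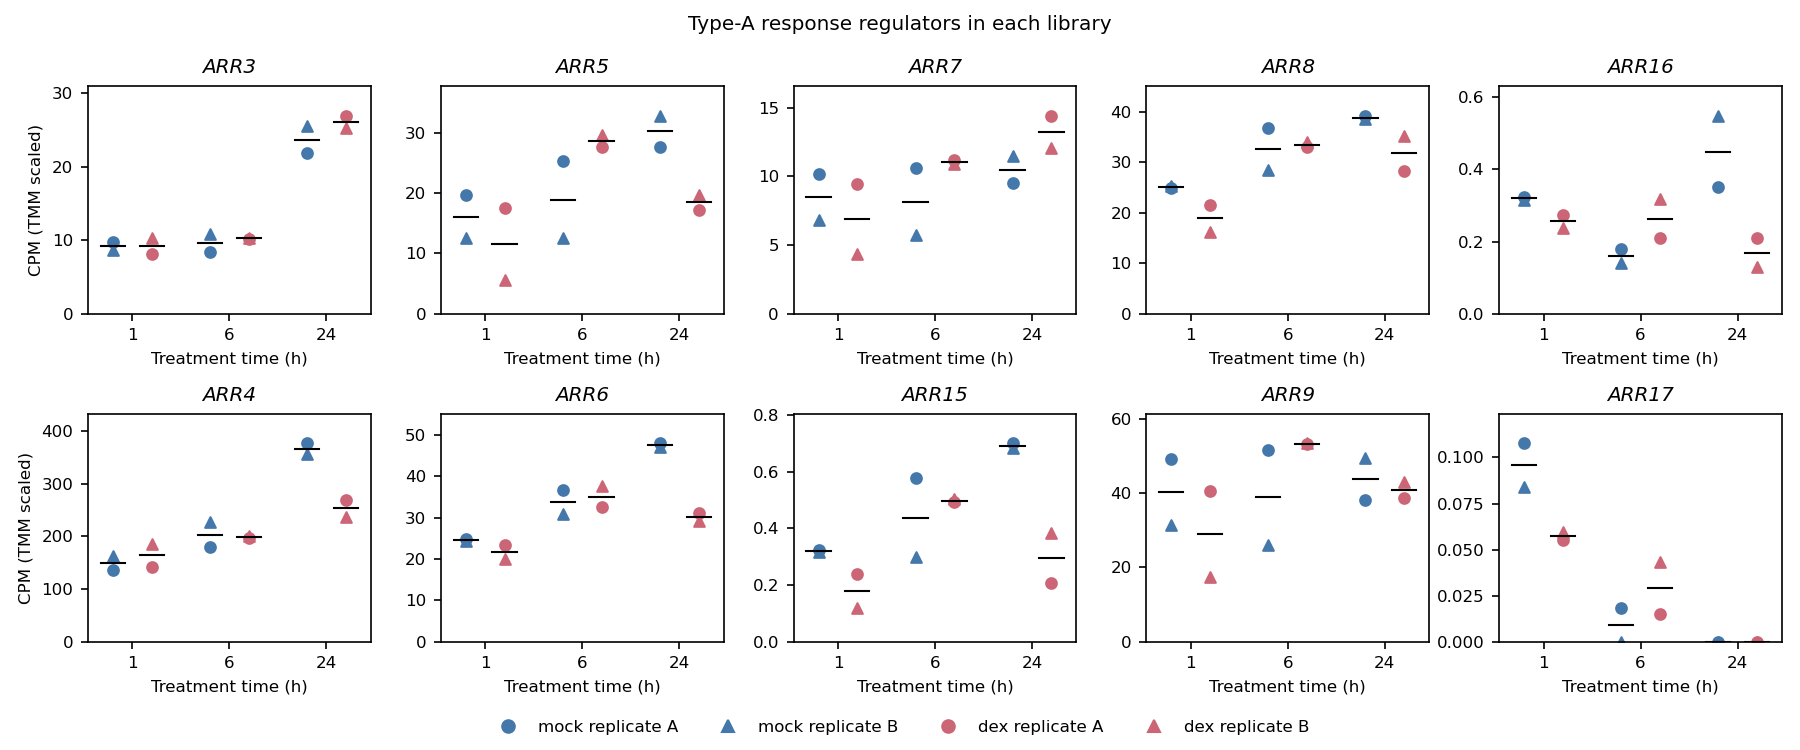
Level of each type-A response regulator in every library (CPM, scaled by trimmed mean of M values) against treatment time, with mock in blue, dexamethasone in red, replicate A as circles, replicate B as triangles and the mean as a line. At 24 h both dexamethasone libraries lie below both mock libraries for *ARR4*, *ARR5* and *ARR6*, and in 1 h mock, 1 h dexamethasone and 6 h mock replicate B lies below A for *ARR5*, *ARR7* and *ARR9*.

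Other markers moved with this comparison at 24 h, where 8.76% of all genes tested were lower and 6.77% higher. Of the 8 callus and root markers, 5 fell (*LBD16* by 0.57, *LBD17* by 0.99, *LBD18* by 0.71, *LBD29* by 1.85 and the stem cell organizer gene *WOX5* by 0.53 on the log2 scale) and *PLT1* rose (0.29). Their summed level was 911.8 to 934.7 CPM in mock and 664.8 to 695.6 CPM with dexamethasone. Of 5 leaf markers 2 rose (*RBCS1A* and *PSBR*) and *LHCB1.3* fell, with sums of 40.5 to 45.1 CPM in mock and 48.7 to 51.1 CPM with the steroid. Mock sums of the leaf markers were 25.2 and 27.9 CPM at 1 h and 49.3 and 66.7 CPM at 6 h. Of 3 floral organ identity genes, *PI* rose (log2 0.62, edgeR adjusted p = 0.000147), *AP3* had 0 to 6 reads and *AG* 1 to 8 reads per library at 24 h. *PI* had 13.7 and 13.2 CPM in mock and 21.1 and 20.2 CPM with dexamethasone at 24 h. It was also present in mock at 1 h (20.1 and 16.2 CPM) and at 6 h (13.5 and 11.4 CPM). The part of the marker shifts at 24 h in the fall of *ARR4*, *ARR5* and *ARR6* was not tested.

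At 1 and 6 h no member was called in the fit without a replicate term. With a term for the replicate letters A and B, 2 members were called at 1 h (*ARR5* and *ARR9*) and 0 at 6 h. Without that term, 9 members were tested at 1 h and 0 passed, beside 0 of 20447 genes (0%). At an unadjusted p under 0.05 edgeR gave 1 member, *ARR8* (log2 -0.43, unadjusted p = 0.0383 in the edgeR fit), and DESeq2 called 0 members (53 genes in all). *ARR8* had 24.9 and 25.4 CPM in mock and 21.6 and 16.3 CPM with dexamethasone.

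*ARR5* had 19.6 CPM in mock A and 12.5 in mock B, against 17.4 with dexamethasone in A and 5.56 in B. Within each letter the dexamethasone library was below mock, and within each treatment B was below A. *ARR9* showed the same order, with 49.0 and 31.4 CPM in mock and 40.6 and 17.4 CPM with dexamethasone, and so did *ARR7* with 10.2 and 6.80 CPM against 9.45 and 4.35 CPM. The 3 genes had log2 fold changes of -0.49, -0.49 and -0.32 with standard errors of 0.53, 0.42 and 0.40. With a replicate term *ARR5* (log2 -0.64, SE 0.15, edgeR adjusted p = 0.00842) and *ARR9* (-0.57, SE 0.11, 0.00095) were called lower, among 413 genes. *ARR7* did not pass with that term (-0.37, SE 0.15, edgeR adjusted p = 0.201). Without dexamethasone replicate A and without a replicate term, the log2 values were -1.55 for *ARR5*, -0.99 for *ARR7*, -0.65 for *ARR8* and -1.24 for *ARR9*. In that fit 1 dexamethasone library is assumed to vary like the 2 mock libraries, so calls are not given. Without dexamethasone replicate B the values of *ARR5* and *ARR7* turned to 0.12 and 0.15.

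At 6 h, 9 members were tested and 0 were called, beside 1 of 20829 genes (0.0048%). At an unadjusted p under 0.05 edgeR gave 0 members, and DESeq2 called 0 (189 genes in all). *ARR4* had 179 and 227 CPM in mock and 197 and 201 CPM with dexamethasone, and the treated libraries lay inside the range of mock (log2 -0.03, SE 0.12). *ARR6* (36.6 and 30.8 against 32.5 and 37.6 CPM) overlapped in the same way. *ARR5* had 25.3 and 12.5 CPM in mock and 27.6 and 29.7 CPM with dexamethasone, so that both treated libraries were above both mock libraries, but not beyond the spread (log2 0.60, SE 0.31, edgeR adjusted p = 0.488).

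The values at 6 h turned on which mock library was kept. Without mock replicate A, the log2 fold change of *ARR4* was -0.18. Those of *ARR5*, *ARR6*, *ARR7*, *ARR8* and *ARR9* were 1.204, 0.19, 0.95, 0.25 and 1.04. Without mock replicate B, *ARR4* had the opposite sign (log2 0.14). In both fits the single mock library is assumed to vary like the 2 dexamethasone libraries, which differed less from each other than the mock libraries did (chi-square per degree of freedom over all genes 2.48 against 31.8). Fold changes at 6 h also went with exon GC content over all genes (r = -0.34 across 20682 genes), as did those at 1 h with the opposite sign (r = 0.29 across 20301 genes). The part of GC content in the values of *ARR5*, *ARR7* and *ARR9* at 1 and 6 h was not tested.

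**Figure D3:**
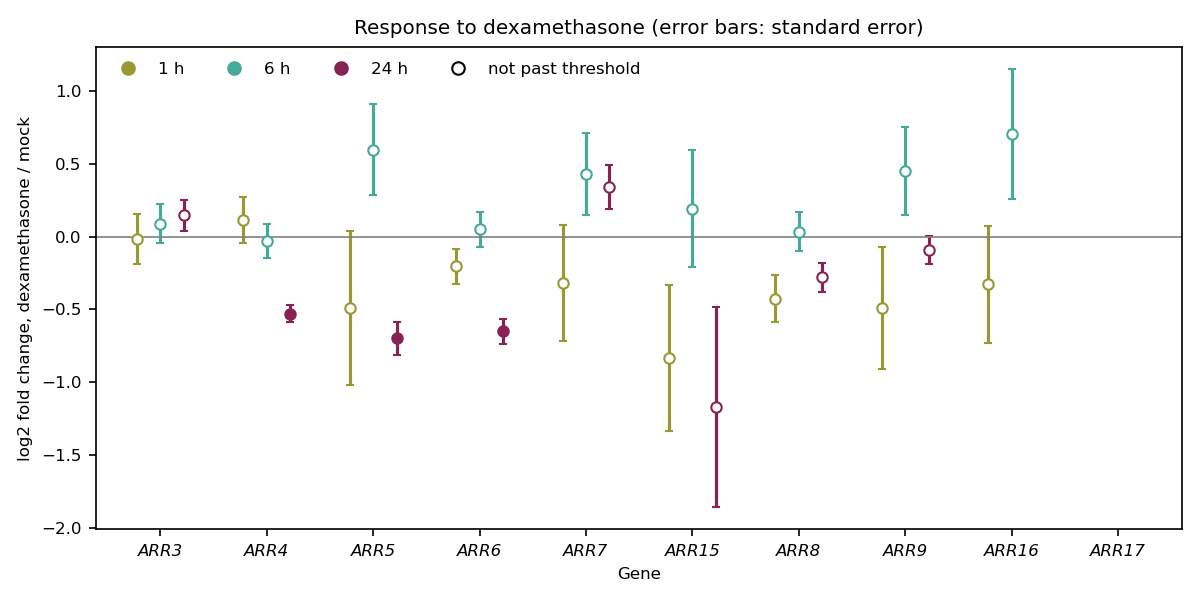
Fold change of each type-A response regulator after dexamethasone (log2, dexamethasone over mock) at 1, 6 and 24 h, with error bars for the standard error, filled points for an edgeR adjusted p under 0.01 and open points for values that did not pass; missing points are members with too few reads. The 3 filled points are *ARR4* (-0.53), *ARR5* (-0.70) and *ARR6* (-0.65) at 24 h.

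The replicates themselves differed in the same direction in several conditions. In 1 h mock, 1 h dexamethasone and 6 h mock, the log2 difference of replicate B minus A was -0.65, -1.64 and -1.01 for *ARR5*, -0.58, -1.11 and -0.88 for *ARR7* and -0.64, -1.22 and -0.99 for *ARR9*. *ARR4* went the other way in the same libraries (0.25, 0.39 and 0.34). Exon GC contents were 36.4% for *ARR4*, 35.7% for *ARR5*, 38.6% for *ARR7* and 33.9% for *ARR9*. In 6 h dexamethasone the replicates of these 4 genes differed by at most 0.10.

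**Figure D4:**
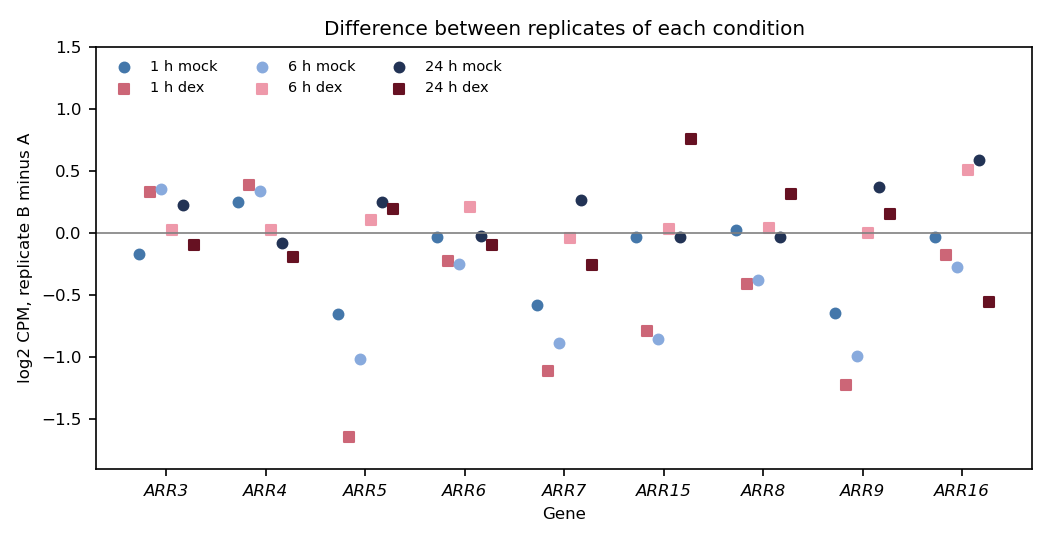
Difference in log2 CPM between replicates B and A for each type-A response regulator with enough reads, in the 6 conditions. In 1 h mock, 1 h dexamethasone and 6 h mock, *ARR5*, *ARR7* and *ARR9* lie between -0.58 and -1.64, while *ARR4* lies between 0.25 and 0.39.

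Whether the response at 24 h differed from the earlier ones was tested as an interaction over all 12 libraries. Between 24 and 6 h, 0 of 9 members passed, beside 4.43% of 21241 genes (1.43% higher and 3% lower); 3 members had an edgeR unadjusted p under 0.05, and DESeq2 called 1, *ARR6*. These 3 were *ARR6* (difference of log2 fold changes -0.71, SE 0.15, adjusted p = 0.0157), *ARR16* (-2.11, SE 0.74, adjusted p = 0.110, from 3 to 22 reads per library at these times) and *ARR4* (-0.50, SE 0.21, adjusted p = 0.176). *ARR5* had a larger difference than *ARR6* with a larger error (-1.31, SE 0.62, adjusted p = 0.253). Leaving out 6 h mock replicate A brought *ARR6* past the threshold (-0.83, adjusted p = 0.00946), with 836 genes called in all. Without the 3 libraries that stood apart, a choice made after the data were seen, *ARR4* (-0.69, adjusted p = 4.74e-06), *ARR5* (-0.88, 0.000135) and *ARR6* (-0.59, 0.00139) passed, among 2419 genes in all. That fit has 1 library of 6 h mock, which is assumed to vary like the conditions that keep both replicates.

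Between 24 and 1 h, 0 of 9 members passed in edgeR, beside 4.74% of genes (1.75% higher and 2.99% lower), with 2 at an unadjusted p under 0.05 and 0 called by DESeq2. *ARR4* had a difference of -0.66 (SE 0.21, adjusted p = 0.0728), *ARR6* -0.47 (SE 0.16, 0.0941) and *ARR5* -0.23 (SE 0.63, 0.868). Without the 3 libraries that stood apart, *ARR4* (-0.58, adjusted p = 0.000136) and *ARR6* (-0.55, 0.00777) passed and *ARR5* did not (-0.52, 0.0307), among 2211 genes called in all. Here the response at 1 h is 1 library against 1, and the spread comes from the conditions that keep both replicates. Without 1 h dexamethasone replicate A alone *ARR4* passed (-0.85, 0.00849), among 1429 genes. Between 6 and 1 h, 0 members passed, beside 0.0612% of genes (0.0565% higher and 0.00471% lower); edgeR gave 0 at an unadjusted p under 0.05, and DESeq2 called 0.

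The mock libraries show how the family stood without the steroid. All explants were harvested at the same age. Mock libraries of different times differ in how long the mock solution was present and in sequencing depth. Replicate B of 1 h mock and of 6 h mock also carried the GC-linked difference described above. These differences cannot be told apart. The 24 h mock libraries had more *ARR4* (376 and 356 CPM) than those of 6 h (179 and 227 CPM) and of 1 h (136 and 163 CPM), with no overlap between times. Relative to 1 h mock, 4 of 9 members were higher at 24 h and 0 lower (10.2% of genes were higher and 14.3% lower): *ARR3* (log2 1.37, SE 0.15, edgeR adjusted p = 4.44e-05), *ARR4* (1.302, SE 0.148, 5.63e-05), *ARR6* (0.96, SE 0.11, 5.83e-05) and *ARR8* (0.64, SE 0.15, 0.00716). *ARR3* had 9.75 and 8.67 CPM at 1 h, 8.47 and 10.8 CPM at 6 h and 21.8 and 25.5 CPM at 24 h. The call of *ARR8* was lost when any 1 of the 4 mock libraries was left out (adjusted p from 0.0361 to 0.0498).

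Against 6 h mock, *ARR3* (1.299), *ARR4* (0.86) and *ARR6* (0.50) were higher at 24 h, or 3 of 9 members beside 6.79% of genes higher and 8.49% lower. Without 24 h mock replicate A or B, *ARR3* alone passed, and without 6 h mock replicate A or B, 2 members passed. Between 6 and 1 h mock, *ARR6* alone was higher (0.46, SE 0.11, adjusted p = 0.00978), beside 5.34% of genes higher and 9.26% lower, and this call was lost without 6 h mock replicate A or without 1 h mock replicate A or B. Set beside these mock values, the dexamethasone libraries of 24 h were not low for *ARR4*: at 270 and 236 CPM they were above all 8 libraries of 1 and 6 h. For *ARR6*, 31.2 and 29.1 CPM lay between the mock levels of 1 h (24.9 and 24.3 CPM) and 6 h (36.6 and 30.8 CPM), with the 6 h range overlapping theirs. For *ARR5*, 17.2 and 19.7 CPM lay within the range of 6 h mock (25.3 and 12.5 CPM) and overlapped that of 1 h mock (19.6 and 12.5 CPM).

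The rest of the cytokinin pathway was read from lists of its genes. As above, 6.77% of all genes tested at 24 h were higher and 8.76% lower. Upstream, 2 of the 3 receptors passed at 24 h in opposite directions. *AHK2* had 16.3 and 15.8 CPM in mock and 21.0 and 24.9 CPM with dexamethasone (log2 0.53, SE 0.12, edgeR adjusted p = 0.000845), whereas *AHK3* had 110 and 106 CPM against 88.3 and 90.4 CPM (-0.27, SE 0.063, 0.00118). *AHK4*, the receptor that is prominent in roots, overlapped between groups (log2 0.08). Of 6 phosphotransfer proteins 4 were tested, and *AHP1* rose (log2 0.35, SE 0.070, edgeR adjusted p = 0.000225).

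Among the type-B regulators that drive type-A genes, 6 of 11 were tested at 24 h and *ARR11* fell from 9.76 and 8.59 to 5.43 and 5.21 CPM (log2 -0.78, SE 0.19, edgeR adjusted p = 0.00173). *ARR1*, *ARR10* and *ARR12*, the main type-B activators of the root, did not pass (log2 -0.03, 0.11 and -0.09). Of the 6 cytokinin response factors, which are AP2-type transcription factors that work beside the type-B proteins, *CRF3* (log2 -0.27) and *CRF5* (-0.42) fell and 0 rose. Neither of the 2 type-C regulators had enough reads.

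Genes that make and break down the hormone fell where they passed, beside 8.76% of all genes lower. *LOG* genes encode the enzymes that release active cytokinin from its nucleotide, and 3 of 5 tested were lower: *LOG5*, from 20.8 and 18.9 to 8.77 and 6.58 CPM (log2 -1.38, SE 0.15, edgeR adjusted p = 2.10e-09), *LOG3* (-0.59) and *LOG8* (-0.50). *IPT5*, which catalyzes the first step of synthesis, fell as 1 of 2 tested synthesis genes (log2 -1.07, SE 0.27, edgeR adjusted p = 0.00245). Of 7 *CKX* genes, encoding the oxidases that degrade cytokinin and themselves induced by it, 3 fell and 0 rose. *CKX1* dropped from 15.3 and 15.5 to 4.54 and 5.34 CPM (log2 -1.63, SE 0.16, edgeR adjusted p = 5.99e-10), *CKX5* from 158 and 166 to 85.8 and 85.1 CPM (-0.92, SE 0.061, 1.72e-14) and *CKX3* from 307 and 305 to 221 and 226 CPM (-0.45, SE 0.053, 2.61e-08). In mock at 1 and 6 h, *CKX1* had 6.50 to 7.80 CPM, *CKX5* 75.8 to 112 CPM and *CKX3* 111 to 151 CPM. The dexamethasone libraries of 24 h were below these ranges for *CKX1*, within them for *CKX5* and above them for *CKX3*.

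Median log2 fold changes at 24 h were -0.45 for the 7 *CKX* genes, -0.59 for the 5 *LOG* genes, -0.18 for the 6 *CRF* genes, -0.01 for the 6 type-B genes, 0.11 for the 4 phosphotransfer genes and 0.08 for the 3 receptors, beside -0.40 for the type-A genes. DESeq2 kept fewer of these calls: *ARR11*, *CRF3*, *CRF5*, *LOG3*, *IPT5* and *AHK2* had adjusted p between 0.0128 and 0.0561, while the type-A and *CKX* calls and those of *LOG5*, *LOG8*, *AHK3* and *AHP1* were kept. At 1 and 6 h, edgeR without a replicate term and DESeq2 called 0 genes of these 8 lists, with 3 and 4 of them at an edgeR unadjusted p under 0.05. With the replicate block, 1 of 5 tested phosphotransfer genes and 1 of 7 *CKX* genes were called at 1 h, beside 413 of 20447 genes.

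**Figure D5:**
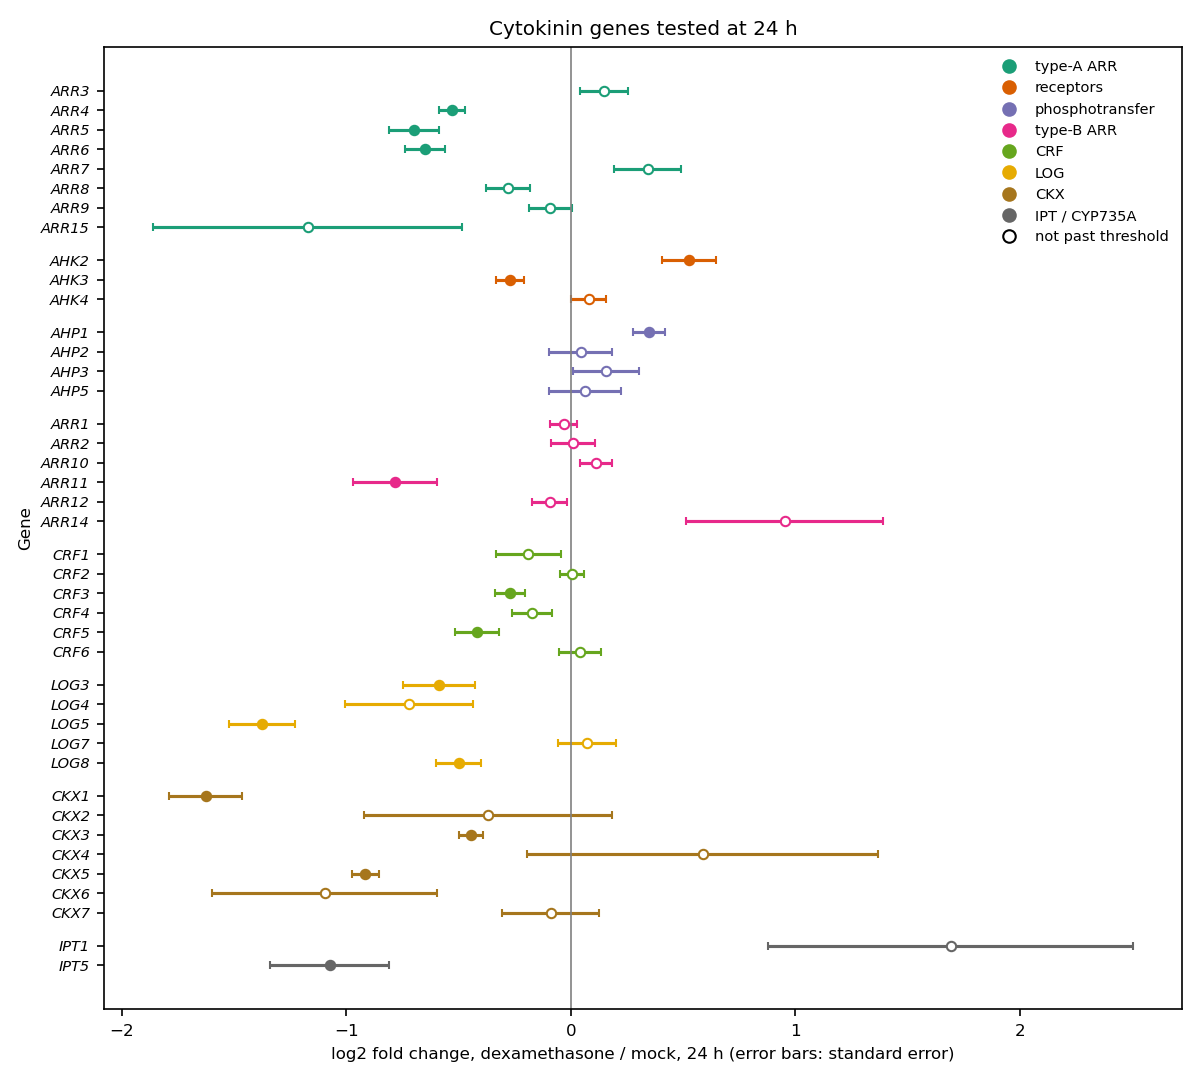
Fold change at 24 h (log2, dexamethasone over mock, with standard error) of the tested genes of the cytokinin pathway by group, with filled points for an edgeR adjusted p under 0.01. Type-A genes, *LOG* genes and *CKX* genes have filled points only on the lower side, down to -1.63 for *CKX1*, and *AHK2* (0.53) and *AHP1* (0.35) are the filled points on the higher side.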

How the data were processed

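RNA-seq libraries of 35S:LFY-GR root explants (12 libraries, 2 per condition) were analysed from gene counts. Per the labels and methods, single-end reads were trimmed (Trimmomatic 0.36) and aligned to TAIR10 (STAR), and the authors then tallied them per Araport11 gene by HTSeq 0.7.2 without strand and deposited whole-number counts without normalization. Reads given to no single gene were left out of library sizes. Reads placed at several positions (6.90% to 22.2%) were not counted, which could lower near-identical genes. Members share 0 stretches of 50 bases with each other, and other genes were not searched for such stretches.

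Dexamethasone was compared with mock by edgeR 4.0.16 (filterByExpr, TMM, quasi-likelihood test, adjusted p under 0.01, R 4.3.3) over the 4 libraries of a time, and times were compared over all 12 libraries. Standard errors came from the F statistic. Exon lengths, GC content and promoters came from RefSeq TAIR10.1, which holds 37051 of the 37336 gene identifiers and all 10 members. The code was tested on simulated data.

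Alternatives were DESeq2 1.42.0, RLE scaling, no filter, at least 10 counts in each library, 1 fit of all libraries, a replicate block, an adjusted p under 0.05, each library left out, and, chosen after seeing the data, the 3 libraries that stand apart left out. Members and gene lists were chosen with earlier results of these data known. All 10 members are named. Of each pathway list, all genes past the threshold at 24 h are named where there are at most 4. Replicates are biological per the labels, which do not say whether explants were grown separately, so p-values measure the spread between these samples.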

Additional observations from a re-analysis of the deposited data

Results flagged for a closer look

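No type-A member was among the results for which the response to dexamethasone differed between times in the 12-library interaction test (edgeR adjusted p under 0.01). Among the other genes named, the response at 24 h minus that at 6 h was negative for *LOG5* (log2 -1.62), *CKX1* (-1.22) and *CKX5* (-0.95), and for the callus and root markers *LBD17* (-1.32), *LBD29* (-2.48) and *WOX5* (-0.80). The response at 24 h minus that at 1 h was negative for the type-B gene *ARR11* (-1.05), for *LOG5* (-1.46), *CKX1* (-1.26), *CKX3* (-0.56) and *CKX5* (-1.03), and for *LBD16* (-0.84), *LBD17* (-1.05) and *LBD29* (-1.69). Both differences use the same 24 h libraries.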

How the results depend on the processing

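With all 4 libraries of 24 h kept, the count of members lower after 24 h of dexamethasone was 3 under each alternative with 2 exceptions. These were the fit of all 12 libraries (1) and an adjusted p under 0.05 (4). With a library of 24 h left out, 1 condition keeps 1 library, so those counts are not given. The log2 values then ran from -0.62 to -0.44 for *ARR4*, -0.82 to -0.58 for *ARR5* and -0.70 to -0.60 for *ARR6*. At 1 h the replicate block, fitted because samples share the letters A and B, gave 2 members (*ARR5* with log2 -0.64 and adjusted p = 0.00842, *ARR9* with -0.57 and 0.00095). The fold changes at 1 h also turned on which dexamethasone library was kept. At 6 h the fold changes turned on which mock library was kept. For the difference between 24 and 6 h, DESeq2 gave 1, no filter 2, an adjusted p under 0.05 1, leaving out the 3 libraries that stand apart 3, and leaving out single libraries 0 to 1. For 24 against 1 h, no filter gave 1, the replicate block 1, leaving out the 3 libraries 2 and single libraries 0 to 1. Between mock 24 and 6 h, leaving out libraries gave 1 to 2. Between mock 6 and 1 h, no filter gave 2, at least 10 counts 0, an adjusted p under 0.05 2, leaving out the 3 libraries 3 and single libraries 0 to 1. The replicate block changed the count of members in no other comparison. Over all genes, the calls at 1, 6 and 24 h were 0, 1 and 2995 by edgeR, 53, 189 and 2054 by DESeq2 and 413, 84 and 3447 with the replicate block, and 1546 at 24 h in the fit of all 12 libraries. The main fits did not take the letters as pairs. Between mock and dexamethasone, the differences B minus A had r = -0.05 at 6 h and 0.02 at 24 h. For 1 h the value was r = 0.52, so the main fit at that time left a shared difference between letters in its error. The low values at 6 and 24 h do not bear on the comparison at 1 h.

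Changes of sign were looked for in every tested member for dexamethasone against mock. For comparisons between mock libraries, only members called there were examined. For differences between responses, members called there or at 24 h were examined. Among these values, those that changed sign were all within dexamethasone comparisons. Members outside this selection may also change sign. In the fit of all libraries *ARR3* at 1 h was 0.00057 (log2). When libraries were left out in turn, log2 values ran from -0.18 to 0.13 for *ARR3* at 1 h, from -0.077 to 0.29 for *ARR4* at 1 h, from -1.55 to 0.12 for *ARR5* at 1 h, from -0.99 to 0.15 for *ARR7* at 1 h, from -1.24 to 0.0057 for *ARR9* at 1 h, from -0.067 to 0.26 for *ARR3* at 6 h, from -0.18 to 0.14 for *ARR4* at 6 h, from -0.081 to 0.19 for *ARR6* at 6 h, from -0.15 to 0.25 for *ARR8* at 6 h, from -0.23 to 0.74 for *ARR15* at 6 h, from -0.27 to 0.096 for *ARR9* at 24 h, from -0.82 to 0.82 for *ARR5*, 24 h minus 1 h, from -0.34 to 0.043 for *ARR4*, 6 h minus 1 h. Without the 3 libraries, *ARR4* for 6 minus 1 h was 0.10. The causes were not tested. With at most 35 reads per library, *ARR15*, *ARR16* and *ARR17* allow little to be said at these depths.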
